A study of Mus musculus with 9 samples.

Results

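S970D was compared with S970A, 2 altered forms of the RNA helicase MOV10, across 15977 genes in 6 of the 9 RNA sequencing libraries of the study. N2A cells, a mouse neuroblastoma line, carried a MOV10 knockout in every group and were transfected with 2 ug of DNA for 24 hours. S970D puts aspartate at serine 970, whose negative charge can stand in for a phosphate, and S970A puts alanine there, which takes no phosphate. Each form had 3 libraries, and the comparison asks how steady messenger RNA levels differ when residue 970 is charged or blocked. Which species the transfected MOV10 came from, its promoter and the number of knockout clones are absent from the labels, and no untransfected library was used here. Separate cultures are not stated for the replicates, and the p-values therefore measure the spread between these libraries, which may be technical.

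MOV10 is an RNA helicase that binds Argonaute 2, the protein that carries a microRNA to its target message, and it takes part in the silencing and decay of such targets. It unwinds structured messages, works with the fragile X protein FMRP at some sites, where it can also block Argonaute, and restrains retroelements. In the developing mouse brain it is known for holding retroelements down and for its part in the outgrowth of neurons.

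The mouse coding sequence around residue 970, where the compared proteins differ, is shown, although the species of the transfected DNA is not known. It comes from the mouse Mov10 transcript with the longest coding sequence in the GENCODE vM21 annotation of GRCm38, exon 19 of 20 and the exon beside it, chr3:104795233-104795361 on the minus strand with the intron left out, and the capitals mark codon 970 of 1004, a serine codon. The mature let-7a microRNA, shown for the let-7 target list described later, has its seed, bases 2 to 8, in capitals and comes from RefSeq on GRCm38.p6 (chr13:48538239-48538260, minus strand).
Mov10 codon 970: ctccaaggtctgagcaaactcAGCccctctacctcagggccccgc
mmu-let-7a-5p: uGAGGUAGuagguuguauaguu

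Mov10 itself (ENSMUSG00000002227.15, chr3:104794836-104818563 on the minus strand of GRCm38) ranked highest among all transcripts in each of the 6 libraries. It read 14.62, 15.24 and 15.42 log2 CPM, a log2 scale of reads relative to library size, in S970A replicates 1, 2 and 3, and 14.57, 14.84 and 14.75 in S970D replicates 1, 2 and 3. The groups overlapped, because S970A replicate 1 lay within the S970D values. Mov10 took between 2.28% and 4.58% of the summed CPM of a library. The difference, S970D minus S970A, was -0.37 ± 0.29 on the log2 scale (SE; limma adjusted p = 0.502), and exact permutation of the group labels gave a two-sided p of 0.3, where 3 against 3 cannot go below 0.1. Without S970A replicate 1 the Mov10 difference was -0.61 (limma adjusted p = 0.0637), or -0.79 with transcript length and GC trends also removed (limma adjusted p = 0.0506). Without S970A replicate 3 it was -0.21 (limma adjusted p = 0.925), and under quantile normalization, which gives the top gene of each library 1 value, it was 0. Transcript left by the knocked-out gene and transcript from the transfected DNA cannot be told apart in a table of gene levels, and the codon at residue 970 cannot be read from it either.

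The library labelled S970A replicate 1 stood apart from the other libraries of its group, which bears on every result that follows. Its median absolute difference from S970D replicates 1, 2 and 3 was 0.164, 0.216 and 0.228 log2 CPM, against 0.58 and 0.659 from S970A replicates 2 and 3. S970A replicates 2 and 3 differed from each other by 0.162. It lay nearer to the S970D mean than to the mean of S970A replicates 2 and 3 in 13523 genes (84.6%). The libraries summed to between 955214 and 1069215 CPM, and 50 to 93 genes per library were listed at the lowest value of -4.09. The cell line's markers were present, with 13 of 14 neuroblastoma markers measured and a summed level of 11.91 to 12.67 log2 CPM in S970A and 12.52 to 12.75 in S970D. For example, Hand2, a sympathetic transcription factor, read 9.29 to 10.61 log2 CPM, whereas Th, which makes the precursor of dopamine, read only -1.27 to -0.32. Why S970A replicate 1 stood apart was not tested.

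**Figure D1:**
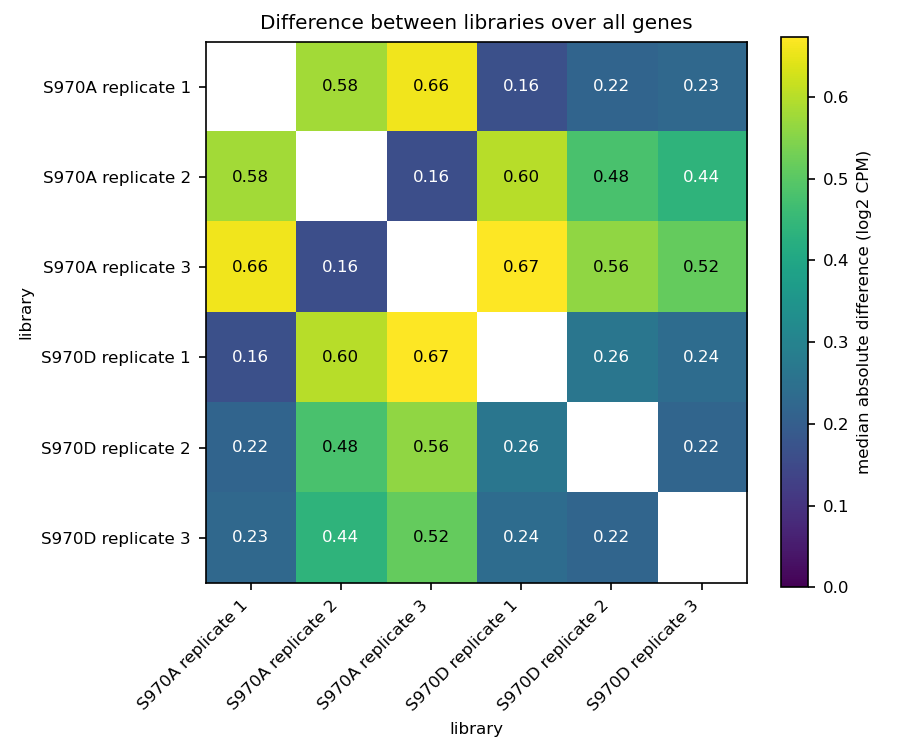
Median absolute difference in log2 CPM over all 15977 genes for each pair of the 6 libraries, with libraries on both axes and the value in each square. S970A replicate 1 differed from the S970D libraries by 0.164 to 0.228 and from S970A replicates 2 and 3 by 0.58 and 0.659.

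With all 6 libraries, no gene passed limma's test at an adjusted p under 0.05 (0 of 15977, 0%). At an unadjusted limma p under 0.05 there were 714 genes (4.47%), of which 393 (2.46%) were higher in S970D and 321 (2.01%) lower. Without any difference a share of 0.05 would reach that p on average. The lowest limma adjusted p was 0.168, and the 20 genes described first shared an adjusted p of 0.489. All S970D libraries lay on 1 side of all S970A libraries, without overlap, in 1289 genes (8.07%), 633 of them higher in S970D (3.96%) and 656 lower (4.11%). Random order of 3 against 3 libraries leaves a share of 0.1 of genes without overlap on average. In 23 of the 1289 genes the gap between the groups was at least 1 on the log2 scale. When S970A replicate 1 was left out, 6876 genes passed (43.0%), 3362 higher in S970D (21.0%) and 3514 lower (22.0%). Of those 6876 genes, 545 (7.93%, against 8.07% of all genes) were also without overlap when all 6 libraries were used, and 1584 had the same direction against S970A replicate 1 alone.

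Among genes with a symbol that is not a predicted model and a mean log2 CPM of at least 0, those higher in every S970D library were led, by p, by Uba7 and Rnaseh2c. Uba7, the enzyme that activates the ubiquitin-like modifier ISG15 (ENSMUSG00000032596.14, chr9:107975505-107984060), read 0.03, -0.08 and 0.17 log2 CPM in S970A replicates 1, 2 and 3 and 1.92, 1.74 and 1.45 in S970D. The S970A libraries lay within 0.24 of each other and 1.28 below the lowest S970D library, so for this gene S970A replicate 1 did not stand apart. The difference was 1.66 ± 0.23 (SE), a ratio of 3.17 (limma adjusted p = 0.489). Rnaseh2c, a subunit of the ribonuclease that removes RNA from RNA-DNA hybrids (ENSMUSG00000024925.11, chr19:5601873-5607019), read 3.61, 2.67 and 3.62 in S970A and 5.86, 5.43 and 4.89 in S970D. Every S970D library was at least 1.27 above every S970A library, and S970A replicate 2 was the lowest. The difference was 2.09 ± 0.35, a ratio of 4.26 (limma adjusted p = 0.489). Rnaseh2c overlaps Kat5 on the opposite strand, for which the difference was 0.40, and the libraries were made with a stranded kit, although no source used here says whether strand was used in counting.

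The other genes higher in S970D without overlap included surface receptors and channel subunits. Gpr45, an orphan G protein-coupled receptor, read 2.17, 2.38 and 2.42 log2 CPM in S970A and 3.56, 3.50 and 3.10 in S970D, a difference of 1.07 ± 0.20. Cxcr5, the chemokine receptor that guides B cells into follicles, read 0.97, 1.05 and 0.86 in S970A and 1.79, 2.03 and 2.12 in S970D, a difference of 1.02 ± 0.20. Cacng8, an auxiliary subunit of AMPA glutamate receptors, read 1.76, 1.08 and 1.06 in S970A and 2.39, 2.56 and 2.60 in S970D, a difference of 1.22 ± 0.25. In Gpr45 and Cxcr5 the S970A libraries lay close together, while in Cacng8 S970A replicate 1 was the S970A library nearest to S970D. Acvr2b, a receptor for activins, read 3.42, 2.81 and 2.87 in S970A and 4.38, 3.80 and 4.07 in S970D, a difference of 1.05 ± 0.24. Here too S970A replicate 1 was the highest of its group, 0.38 below the lowest S970D library.

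Of the remaining genes on the higher side, 2 act on membranes and the cytoskeleton. Micall1, which scaffolds recycling endosomes, read 4.25, 4.54 and 4.65 log2 CPM in S970A and 5.58, 5.28 and 5.32 in S970D, a difference of 0.91 ± 0.18. Gmip, a GTPase-activating protein, read 3.85, 3.41 and 4.11 in S970A and 5.04, 4.86 and 4.70 in S970D, a difference of 1.07 ± 0.22. The S970A library nearest to S970D was replicate 3 for both genes. Hgd, an enzyme of tyrosine breakdown, read -0.31, -0.78 and -0.29 in S970A and 1.05, 0.68 and 0.81 in S970D, a difference of 1.30 ± 0.26. Mcur1, a regulator of the mitochondrial calcium uniporter, read 2.85, 3.08 and 3.09 in S970A and 4.18, 3.64 and 3.79 in S970D, a difference of 0.87 ± 0.20. S970A replicate 1 was the lowest library of all for Mcur1. Cxcr5 overlaps Bcl9l and Micall1 overlaps 1700088E04Rik on the opposite strand.

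By the same rule, Cxcl1 and Ip6k1 led the genes lower in every S970D library. Cxcl1, a chemokine that attracts neutrophils (ENSMUSG00000029380.11, chr5:90891241-90893115), read 2.52, 3.36 and 3.22 log2 CPM in S970A and 1.38, 1.50 and 1.56 in S970D. The S970D libraries lay within 0.18 of each other, and S970A replicate 1, the lowest of its group, was 0.96 above the highest of them. The difference was -1.55 ± 0.26, a ratio of 0.341 (limma adjusted p = 0.489). Ip6k1, a kinase that makes inositol pyrophosphates (ENSMUSG00000032594.11, chr9:108002501-108048782), read 5.01, 6.54 and 6.28 in S970A and 3.84, 3.71 and 3.74 in S970D. The S970D libraries lay within 0.14 of each other, while the S970A libraries spread over 1.53. The difference was -2.18 ± 0.38, a ratio of 0.220 (limma adjusted p = 0.489). Ip6k1 and Uba7 lie on the plus strand of chromosome 9 with 18440 bases between them, and stood on opposite sides of the comparison. Each overlaps a predicted protein-coding gene on the same strand, Gm20662 for Ip6k1 and Gm20661 for Uba7. Neither predicted gene was measured, and how reads were split is not known.

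The Cxcl1 promoter, 250 bases before to 50 after the start site, is shown because Cxcl1 is a textbook target of the inflammatory transcription factor NF-kappaB and had the smallest p of the lower genes named. It comes from RefSeq on GRCm38.p6 (chr5:90890995-90891294, plus strand). The capitals mark its 1 match to GGAATTTCC, a form of the NF-kappaB motif searched on both strands, which begins 70 bases before the start site. Of 32851 promoters of this length, 104 (0.317%) held the motif. Of the other forms tried, GGGAATTTCC was held by 29 promoters (0.0883%) with 1 match here, and GGGNNNTTCC by 1825 (5.56%) with 3 matches here. All 3 forms were chosen after this promoter had been read, so the shares depend on that choice. The match is a description of these letters.
Cxcl1 promoter: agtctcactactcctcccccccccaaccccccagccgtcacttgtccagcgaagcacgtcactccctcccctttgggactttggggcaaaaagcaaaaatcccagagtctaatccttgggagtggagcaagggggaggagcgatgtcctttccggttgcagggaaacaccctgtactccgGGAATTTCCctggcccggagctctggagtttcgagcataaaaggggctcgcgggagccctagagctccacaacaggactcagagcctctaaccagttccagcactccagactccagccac

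Among the other lower genes were regulators of chromatin, division and adhesion. Ezh2, the histone methyltransferase of Polycomb repressive complex 2, read 6.60, 6.81 and 6.84 log2 CPM in S970A and 6.16, 6.13 and 6.04 in S970D, a difference of -0.64 ± 0.15. Cit, a kinase needed for the end of cell division, read 5.86, 5.83 and 6.48 in S970A and 5.17, 5.22 and 5.08 in S970D, a difference of -0.90 ± 0.21. Celsr2, an atypical cadherin of neurons, read 3.11, 3.17 and 3.03 in S970A and 2.54, 2.09 and 2.04 in S970D, a difference of -0.88 ± 0.20. S970A replicate 1 was the lowest of its group for Ezh2 and lay between the others for Cit and Celsr2. Myo5c, an unconventional myosin that carries vesicles, read 1.74, 1.40 and 1.28 in S970A and 0.18, 0.41 and 0.44 in S970D, a difference of -1.13 ± 0.23. Arhgef12, a guanine nucleotide exchange factor, read 4.64, 5.08 and 5.28 in S970A and 4.01, 4.25 and 4.26 in S970D, a difference of -0.82 ± 0.21. For Myo5c S970A replicate 1 was the library farthest from S970D, and for Arhgef12 it was the nearest of its group.

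Ptar1, a prenyltransferase subunit, read 4.83, 4.76 and 4.77 log2 CPM in S970A and 3.87, 4.32 and 3.96 in S970D, a difference of -0.74 ± 0.17. Its 3 S970A libraries lay within 0.06 of each other. Gpatch8, a G-patch protein of messenger RNA splicing, read 5.49, 5.60 and 5.64 in S970A and 4.83, 4.83 and 5.10 in S970D, a difference of -0.65 ± 0.16. Dclre1b, the Apollo nuclease of telomeres, read 3.45, 4.01 and 3.86 in S970A and 2.92, 3.11 and 2.92 in S970D, a difference of -0.79 ± 0.20. S970A replicate 1 was the lowest of its group for Gpatch8 and Dclre1b, and lay outside the S970D values in each. Over the 20 genes named from all 6 libraries, S970A replicate 1 was the S970A library nearest to the S970D mean in 8. When it was left out all 20 passed, against 43.0% of all genes, with limma adjusted p from 0.00107 to 0.0156. With transcript length and GC trends also removed 15 passed, against 19.8% of all genes, and Ptar1 turned to 0.18. The 20 were chosen on the same libraries, so nothing is read from these counts.

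**Figure D2:**
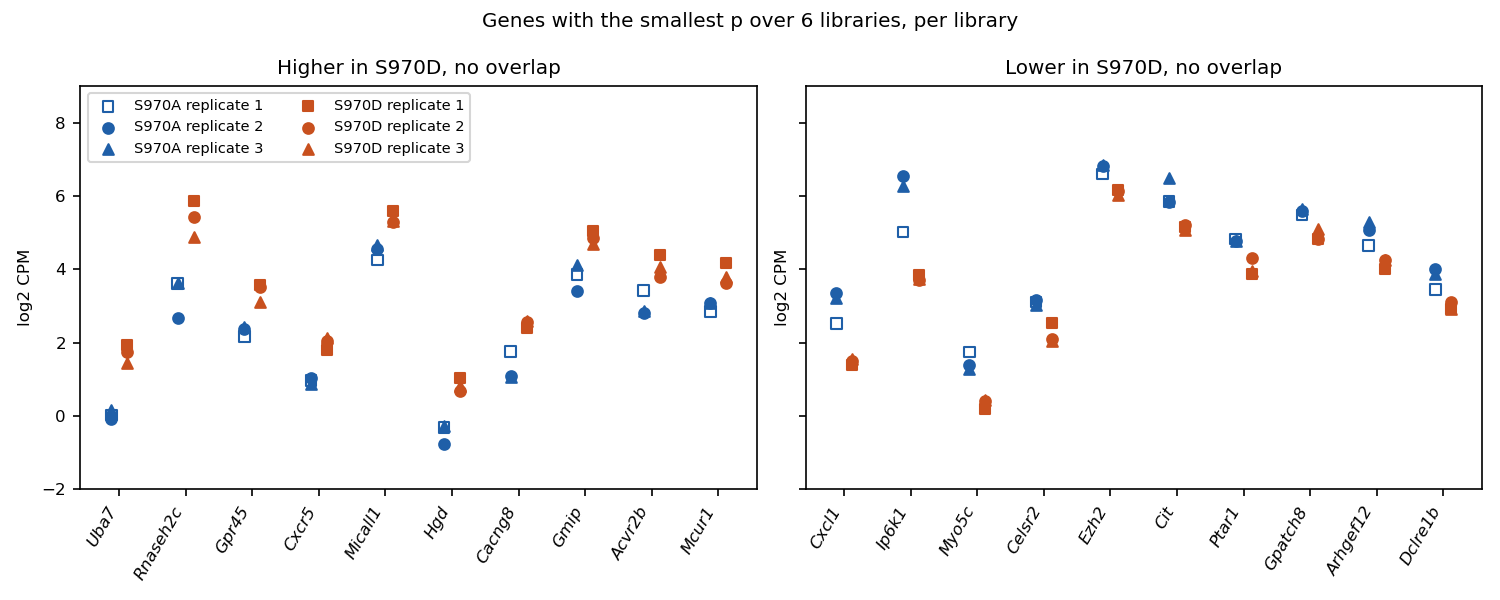
Log2 CPM (vertical axes) in each library for the 10 genes higher and the 10 genes lower in S970D with the smallest p over 6 libraries; open squares are S970A replicate 1. The genes were chosen for groups that do not overlap, and for Uba7 the S970A libraries read -0.08 to 0.17 and the S970D libraries 1.45 to 1.92.

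Predicted genes fell outside the naming rule, and 3 of them are given here, chosen after their values were seen. Gm49395 had the lowest adjusted p of all genes, at -0.19, 0.55 and -0.14 log2 CPM in S970A and 3.38, 2.88 and 3.08 in S970D, a difference of 3.04 ± 0.28 (limma adjusted p = 0.168). 1700094D03Rik read 0.73, 0.17 and -0.21 in S970A and 4.41, 4.20 and 2.87 in S970D, a difference of 3.60 ± 0.45 (limma adjusted p = 0.469). Gm28661, an unprocessed pseudogene, was listed at the lowest value in S970A replicates 2 and 3, read 1.01 in S970A replicate 1, and read 5.68, 6.43 and 4.07 in S970D. All 3 had every S970D library above every S970A library.

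The 10 genes with the smallest p when S970A replicate 1 was left out included Ip6k1, given above, and in 4 of the 10 that library lay within the S970D values. Snd1, a Tudor-domain nuclease found in the microRNA silencing complex, read 7.15 in S970A replicate 1, 8.55 and 8.75 in S970A replicates 2 and 3, and 6.98, 7.08 and 6.89 in S970D. Its difference was -1.17 ± 0.40 with all 6 libraries (limma adjusted p = 0.489) and -1.67 without S970A replicate 1 (limma adjusted p = 0.00426). There was no overlap, but S970A replicate 1 was only 0.17 above the S970D mean. Smad4, the shared mediator of TGF-beta signalling, read 4.70 in S970A replicate 1, 6.35 and 6.49 in replicates 2 and 3, and 4.55, 4.90 and 4.65 in S970D. Ntrk3, the neurotrophin-3 receptor, read 3.13, then 5.17 and 5.66, against 3.34, 3.20 and 3.38 in S970D. Cobll1, an actin-binding protein, read 2.79, then 4.95 and 4.97, against 2.75, 2.94 and 3.12 in S970D. Values of S970A and S970D overlapped in Smad4, Ntrk3 and Cobll1, and S970A replicate 1 lay within or below the S970D values.

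On the higher side Castor2, an arginine sensor family member of the mTORC1 pathway, read 6.26 in S970A replicate 1, 2.98 and 3.13 in replicates 2 and 3, and 6.55, 6.22 and 5.73 in S970D. Gp1bb, a subunit of the platelet von Willebrand factor receptor, read 2.71, then 0.53 and 0.09, against 3.11, 2.95 and 2.86 in S970D. Sap25, a partner of the SIN3 corepressor, read 3.52, then 1.75 and 1.54, against 3.69, 3.76 and 3.50 in S970D. S970A replicate 1 lay among the S970D libraries for Castor2 and Sap25 and just below them for Gp1bb. Hist1h2ao, a histone H2A gene with near-identical copies, was listed at the lowest value of -4.09 in S970A replicates 2 and 3 and read 4.05 in replicate 1 and 3.06 to 3.89 in S970D. Serf2, a small protein that promotes amyloid aggregation, read 10.05, then 7.57 and 7.06, against 9.94, 9.67 and 9.65 in S970D. Hypk, a chaperone gene that overlaps Serf2 on the same strand, read in the opposite direction, at 2.59 in S970A replicate 1, 7.06 and 6.80 in replicates 2 and 3, and 3.52, 2.95 and 4.56 in S970D. How reads were split between Serf2 and Hypk is not known, and Gp1bb and Sap25 also overlap measured genes on the same strand. S970A replicate 1 was the S970A library nearest to the S970D mean in all 10 genes named without it, and 3 of the 10 were without overlap when it was kept.

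**Figure D3:**
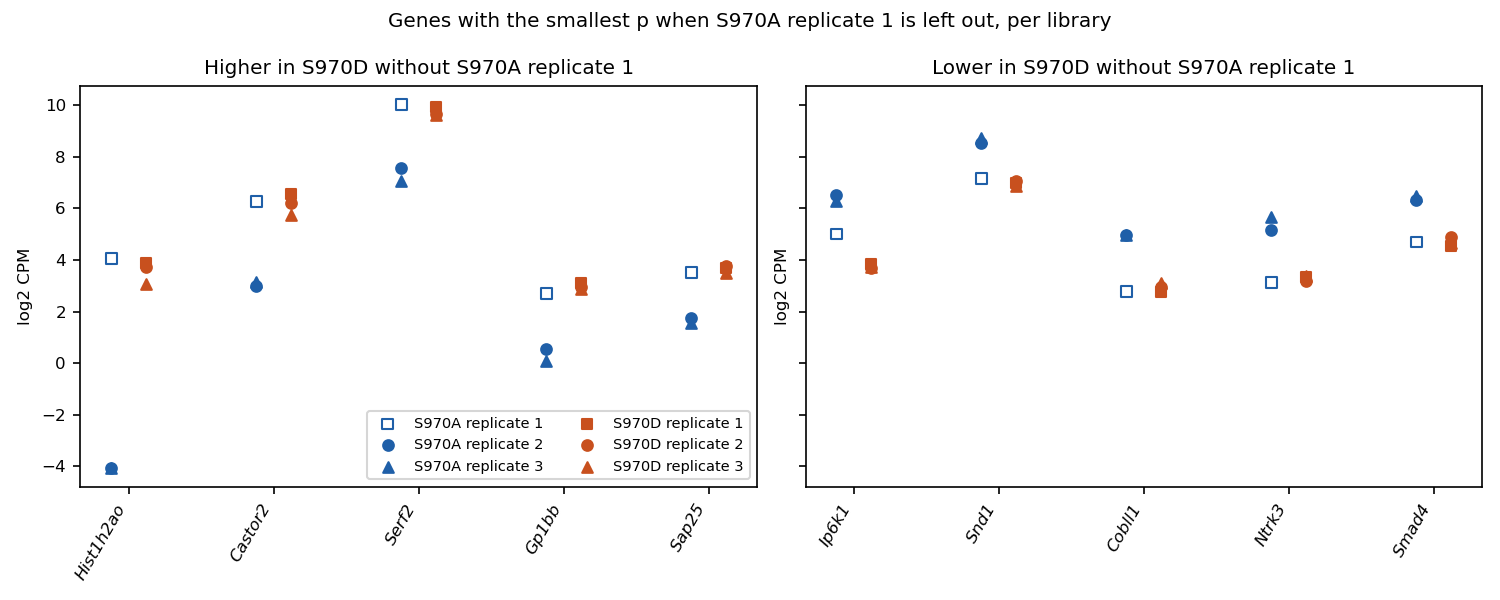
Log2 CPM (vertical axes) in each library for the 5 genes higher and the 5 genes lower in S970D with the smallest p when S970A replicate 1 (open squares) is left out. In Smad4 that library read 4.70, within the S970D range, against 6.35 and 6.49 in the other S970A libraries.

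Of the 33 pathway lists described next, none had a member that passed limma's test with all 6 libraries, against 0% of all genes. Their 1325 members included 80 without overlap between the groups (6.04%), against 8.07% of all genes. In 27 lists the median of S970D minus S970A replicate 1 had the opposite sign to the medians against both other S970A libraries. The medians against S970A replicate 1 lay between -0.24 and 0.29. The lists differ in length and composition of their transcripts, so medians are given beside those over all genes, which were near 0 against each S970A library. With length and GC trends removed, 25 of the 33 medians were over 1.5 times nearer 0, and that of immediate early genes was farther, at -0.28 against -0.06.

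The proteins that silence microRNA targets read lower in S970D than in S970A replicates 2 and 3 and slightly higher than in S970A replicate 1. Over 15 silencing effectors the median difference was -0.22 with all libraries, and 0.10, -0.36 and -0.45 against S970A replicates 1, 2 and 3. With length and GC trends removed it was -0.07. None of the 15 was without overlap, and 5 passed as lower without S970A replicate 1 (33.3%, against 22.0% of all genes). Ago2, the Argonaute that cuts and silences targets, read 5.76, 6.93 and 7.03 log2 CPM in S970A and 6.35, 6.47 and 6.36 in S970D. The S970D libraries lay between S970A replicate 1 and the other S970A libraries, and the difference was -0.18 ± 0.34 (limma adjusted p = 0.763). Tnrc6a, the GW182 scaffold that recruits deadenylases to Argonaute, read 6.10, 7.05 and 7.24 in S970A and 6.10, 6.27 and 6.21 in S970D, a difference of -0.61 ± 0.30 (limma adjusted p = 0.489). Its relative Tnrc6b differed by -0.35 ± 0.26, with S970A replicate 1, at 4.90, within the S970D values of 4.59 to 5.29.

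For microRNA processing, 1 of 16 members was lower without overlap (6.25%, against 4.11% of all genes). That was Prkra, a Dicer partner, at 4.03 to 4.04 in S970A and 3.91 to 3.98 in S970D. Dicer1, which cuts precursor hairpins, differed by -0.04 ± 0.15, and Drosha, which cuts primary transcripts, by 0.07 ± 0.14. Lin28b, which blocks let-7 maturation, read 4.39, 5.42 and 5.44 in S970A and 4.34, 4.36 and 4.70 in S970D, a difference of -0.61 ± 0.31. S970A replicate 1 lay among the S970D libraries for Lin28b.

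The median difference over 29 targets of let-7, whose seed is shown above, was -0.13 with all libraries and 0.01 against S970A replicate 1. Igf2bp2, an RNA-binding protein of growth control, was the 1 target without overlap (3.45% lower, against 4.11% of all genes). It read 1.55, 1.81 and 2.10 log2 CPM in S970A and 1.19, 1.38 and 1.40 in S970D. Among targets lower in S970D, Rdx and Ncoa3 had the next largest test values. Rdx, a membrane-actin linker, differed by -0.74 ± 0.36, and Ncoa3, a nuclear receptor coactivator, by -0.48 ± 0.24. S970A replicate 1 lay within the S970D values for both. It read 6.70 against 6.55 to 6.98 for Rdx, and 5.57 against 5.55 to 5.66 for Ncoa3. The list of miR-124 targets and the neuronal switch, 26 genes, had a median of -0.19 with all libraries and 0.15 against S970A replicate 1. In that list Ezh2 was lower without overlap (3.85%, against 4.11% of all genes). Cdk6 was higher without overlap (3.85%, against 3.96%), at -2.68 to -2.34 in S970A and -2.23 to -0.68 in S970D. Ptbp1, the splicing repressor that falls in neurons, differed by -0.40 ± 0.27, with S970A replicate 1, at 8.19, just below the S970D values of 8.21 to 8.48.

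FMRP and its granule partners, proteins that meet MOV10 on messages, had a median of -0.37 over 23 genes. Against S970A replicates 1, 2 and 3 the medians were 0.03, -0.58 and -0.66, and with length and GC trends removed the median was -0.14. Fmr1, the gene of FMRP, read 4.85, 5.45 and 5.53 log2 CPM in S970A and 4.90, 4.73 and 4.98 in S970D, a difference of -0.41 ± 0.22 with overlap. Caprin1, a stress granule protein, read 7.28, 8.46 and 8.62 in S970A and 7.12, 7.43 and 7.37 in S970D, a difference of -0.81 ± 0.35. Elavl1, which stabilises messages with AU-rich elements, differed by -0.57 ± 0.24. Its values were 6.63, 7.19 and 7.36 in S970A and 6.43, 6.27 and 6.78 in S970D. S970A replicate 1 lay within the S970D values for both Caprin1 and Elavl1. The 1 member without overlap was Ybx1, at 10.13 to 10.22 in S970A and 9.99 to 10.10 in S970D (4.35% lower, against 4.11% of all genes).

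The median over 25 helicases related to MOV10 and nonsense-mediated decay factors was -0.13. Of these, 1 was higher (4%, against 3.96% of all genes) and 2 lower (8%, against 4.11%) without overlap. Upf1, the central helicase of that decay, differed by -0.25 ± 0.35, with 6.70 to 7.98 log2 CPM in S970D alone. Helz2, a helicase of the same superfamily, read 3.52, 4.03 and 4.06 in S970A and 3.29, 3.44 and 3.47 in S970D. Smg5, which brings decay enzymes to UPF1, was also lower without overlap, and Ighmbp2 higher. Of 41 decay enzymes, 2 were higher without overlap (4.88%, against 3.96% of all genes). Skiv2l, the cytoplasmic exosome's helicase, read 4.40, 4.82 and 4.33 in S970A and 5.25, 5.32 and 4.90 in S970D, a difference of 0.64 ± 0.20 (limma adjusted p = 0.489), while Cnot8, a deadenylase, differed by 0.14 ± 0.14.

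Ribosomal, respiratory and histone genes had the highest medians of the 33 lists. Over 83 cytosolic ribosomal proteins the median was 0.60 with all libraries, and -0.14, 0.81 and 1.10 against S970A replicates 1, 2 and 3. None of the 83 was without overlap, and 76 passed as higher without S970A replicate 1 (91.6%, against 21.0% of all genes). Rpl29 of the large subunit read 6.78, 5.13 and 4.83 log2 CPM in S970A and 7.27, 6.27 and 6.82 in S970D. S970A replicate 1 lay among the S970D libraries, and the difference was 1.20 ± 0.52 (limma adjusted p = 0.489). Mitochondrial ribosomal proteins had a median of 0.46 over 79 genes, and -0.15 against S970A replicate 1. Their 1 member without overlap, Mrps5, was lower in S970D, at -0.16 (1.27% of the list, against 4.11% of all genes). Respiratory chain genes of the nucleus had a median of 0.49 over 78 genes, -0.13 against S970A replicate 1, and none without overlap. Messages of the mitochondrial genome stood the other way, with a median of -0.29 over 13 genes and 0.29 against S970A replicate 1. With length and GC trends removed the medians were 0.20 for mitochondrial ribosomal proteins, 0.18 for nuclear respiratory chain genes and -0.04 for messages of the mitochondrial genome. Among the last, mt-Co1 read 11.05, 12.71 and 13.04 in S970A and 11.04, 11.85 and 11.48 in S970D.

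Replication-dependent histones had a median of 0.61 over 59 genes, and -0.24, 0.85 and 1.25 against S970A replicates 1, 2 and 3. Most such messages end in a stem-loop in place of a poly(A) tail, and several have near-identical copies between which reads can be split. Of the 59, 4 were higher without overlap (6.78%, against 3.96% of all genes). H4c11 read 0.22, -0.45 and -1.05 log2 CPM in S970A and 0.60, 0.52 and 0.63 in S970D, a difference of 1.01 ± 0.35. The proteasome had a median of 0.22 over 37 genes and none without overlap. Translation factors had a median of 0.02 over 61 genes, which turned to -0.06 under quantile normalization, and splicing factors -0.17 over 33 genes, both with none without overlap.

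Of 164 genes from Zfp600 to Zfp999, 14 were lower without overlap (8.54%, against 4.11% of all genes) and 3 higher (1.83%, against 3.96%). Many of the 164 are repressors of retroelements, and the median was -0.26. Zfp846 read 2.58, 2.66 and 2.84 log2 CPM in S970A and 1.96, 2.14 and 1.95 in S970D, a difference of -0.68 ± 0.18 (limma adjusted p = 0.489). All 3 S970A libraries lay above all S970D libraries for Zfp846, although its difference turned to 0.03 with length and GC trends removed and S970A replicate 1 left out, and Zfp931 at -0.81 ± 0.24 and Zfp970 at -0.72 ± 0.27 followed. The median against S970A replicate 1 was 0.01, against -0.40 and -0.47 for replicates 2 and 3, and -0.02 once length and GC trends were removed. Retroelement control genes had a median of -0.28 over 30 genes. Rnaseh2c was the 1 higher without overlap (3.33%, against 3.96% of all genes). Samhd1, a nucleotide-clearing antiviral enzyme, was the 1 lower without overlap (3.33%, against 4.11%).

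Of 47 genes of G2 and mitosis, 7 were lower without overlap (14.9%, against 4.11% of all genes) and none higher. The median was -0.24 with all libraries and had the same sign against each S970A library, at -0.07, -0.32 and -0.31. Ccna2, cyclin A2, read 6.82, 7.73 and 7.76 log2 CPM in S970A and 6.51, 6.80 and 6.81 in S970D, a difference of -0.73 ± 0.28 (limma adjusted p = 0.489). Mki67, a marker of cycling cells, read 8.87, 9.34 and 9.37 in S970A and 8.56, 8.87 and 8.77 in S970D. In both genes S970A replicate 1 lay next to the highest S970D library. Dlgap5, a spindle protein, read at least 5.94 in S970A and at most 5.77 in S970D, a difference of -0.29 ± 0.14. The others were Ccnb1, Kif23, Ncapg and Nuf2. In bulk samples fewer dividing cells and less RNA per cell cannot be told apart. Replication genes had a median of 0.03 over 50 genes, and kinesins -0.18 over 32. Of the replication genes, 1 was higher (2%, against 3.96% of all genes) and 3 lower (6%, against 4.11%) without overlap.

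**Figure D4:**
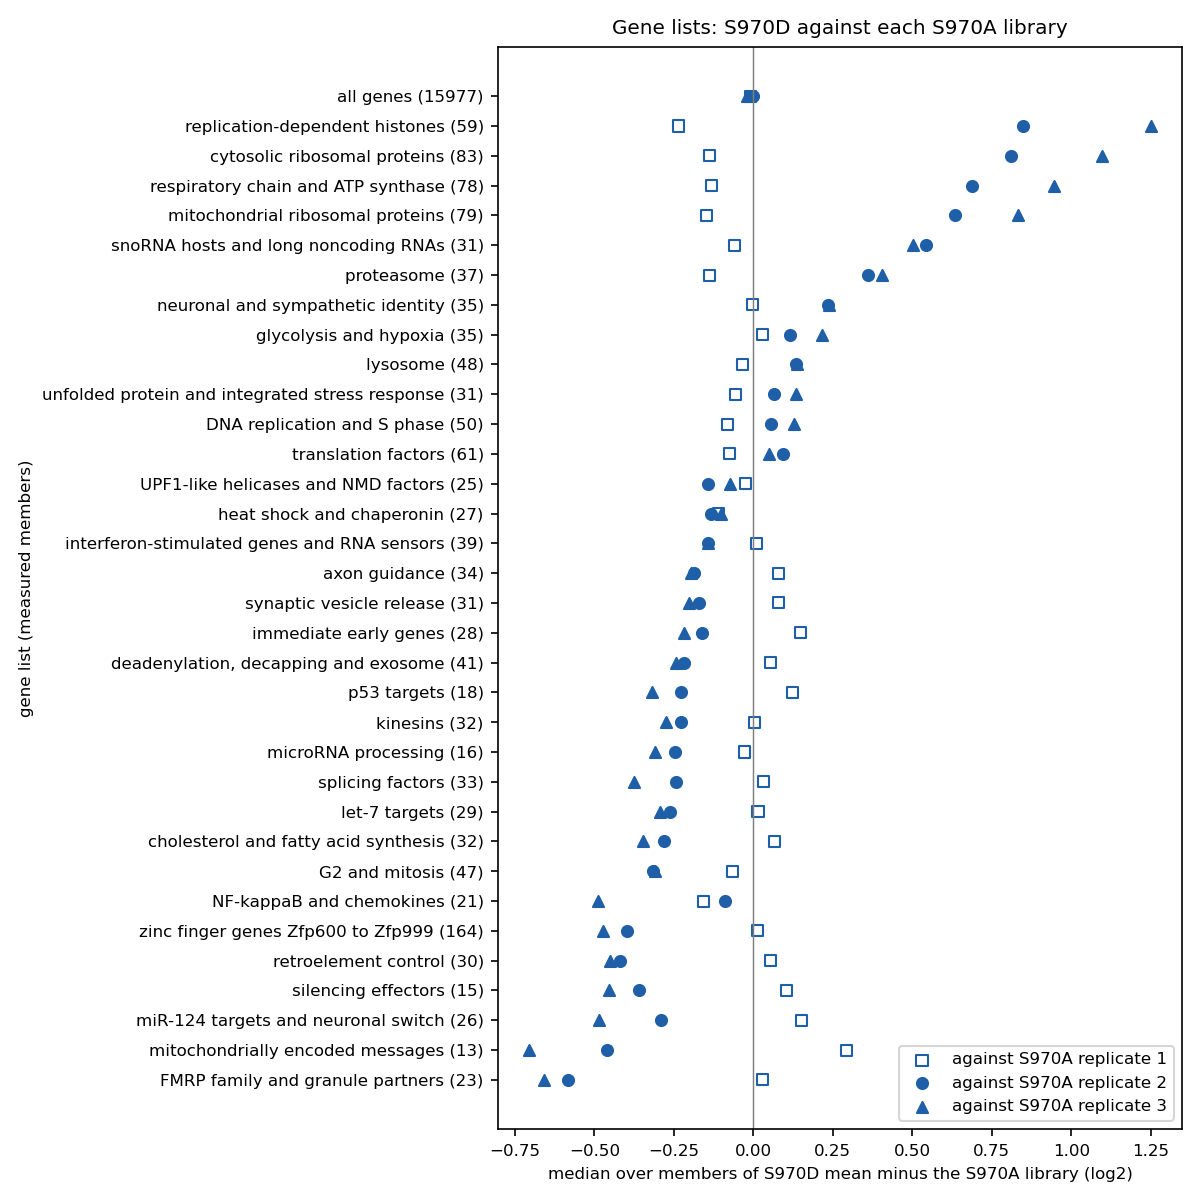
Median over the measured members of each list (number in parentheses) of the S970D mean minus each S970A library, in log2; open squares are S970A replicate 1. Cytosolic ribosomal proteins lie at -0.14, 0.81 and 1.10 against replicates 1, 2 and 3, and heat shock genes at -0.11, -0.13 and -0.10.

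Chaperones and glycolytic genes had medians of 1 sign against each S970A library. Heat shock and chaperonin genes had a median of -0.12 over 27 genes, at -0.11, -0.13 and -0.10 against replicates 1, 2 and 3, and 4 were lower without overlap (14.8%, against 4.11% of all genes). With length and GC trends removed the chaperone median was -0.05. Hsph1, a co-chaperone of HSP70, read 8.52, 8.60 and 8.55 log2 CPM in S970A and 8.13, 8.34 and 8.25 in S970D, a difference of -0.32 ± 0.15, which turned to 0.03 with length and GC trends removed and S970A replicate 1 left out. Hspd1, the mitochondrial chaperonin, differed by -0.32 ± 0.17. Hspa1b at -0.18 and Tcp1 at -0.15 were the other members without overlap. Glycolysis and hypoxia genes had a median of 0.14 over 35 genes, and 4 were higher without overlap (11.4%, against 3.96%). Gpi1, a glycolytic isomerase, read 9.27, 9.01 and 8.70 in S970A and 9.37, 9.47 and 9.34 in S970D, while Ankrd37, a hypoxia target, differed by 0.48 ± 0.21. Egln3 and Ndrg1 were the other members.

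The unfolded protein and integrated stress response had 0.03 over 31 genes, which turned to -0.07 under quantile normalization. Of the 31, 2 were lower without overlap (6.45%, against 4.11% of all genes). Herpud1, a factor of endoplasmic reticulum degradation, read 7.11 to 7.20 log2 CPM in S970A and 7.12, 8.01 and 7.99 in S970D, so S970D replicate 1 read like S970A. Cholesterol and fatty acid synthesis had a median of -0.16 over 32 genes. Its 1 member without overlap, Tm7sf2, was higher in S970D at 0.66 ± 0.24 (3.12% of the list, against 3.96% of all genes). Scd1, a desaturase, differed by -0.87 ± 0.43, with S970A replicate 1, at 4.07, within the S970D values of 3.87 to 4.46. The lysosome had 0.09 over 48 genes, which turned to -0.001 once length and GC trends were removed. Of the 48, 1 was higher (2.08%, against 3.96% of all genes) and 4 lower (8.33%, against 4.11%) without overlap. Targets of p53 had -0.10 over 18 genes. Cdkn1a, a cell cycle inhibitor, was higher without overlap at 0.19 ± 0.15 (5.56% of the list, against 3.96% of all genes).

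Nfkb1 and Il6 read lower beside Cxcl1. The median over 21 NF-kappaB and chemokine genes was -0.23, with -0.16, -0.09 and -0.49 against S970A replicates 1, 2 and 3, and 2 were lower without overlap (9.52%, against 4.11% of all genes). Nfkb1, the p50 subunit, read 4.79 to 5.11 log2 CPM in S970A and 4.26, 4.59 and 4.40 in S970D, a difference of -0.55 ± 0.17 (limma adjusted p = 0.489). Il6, an inflammatory cytokine, read 3.87, 4.42 and 4.58 in S970A and 3.22, 3.88 and 3.46 in S970D, a difference of -0.77 ± 0.26, where S970D replicate 2 overlapped S970A replicate 1. Interferon-stimulated genes had a median of -0.11 over 39 genes, which turned to 0.01 once length and GC trends were removed. In that list Uba7 and Oas1b, a sensor family member, were higher without overlap (5.13%, against 3.96% of all genes). Samhd1 was lower without overlap at -0.12 ± 0.14 (2.56%, against 4.11%). Isg15, the modifier that UBA7 activates, read 6.42, 5.54 and 5.28 in S970A and 6.55, 6.14 and 6.20 in S970D, a difference of 0.55 ± 0.31 with overlap. Immediate early genes had -0.06 over 28 genes, which turned to 0.01 under median centring.

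Neuronal lists were mixed. Neuronal and sympathetic identity genes had a median of 0.14 over 35 genes. Of these, 2 were higher (5.71%, against 3.96% of all genes) and 1 lower (2.86%, against 4.11%) without overlap. Th read -1.19, -1.04 and -1.27 log2 CPM in S970A and -0.35, -0.55 and -0.32 in S970D, a difference of 0.76 ± 0.27, and its S970A libraries lay close together. Slc18a1, a vesicular monoamine transporter, read 0.85, -0.58 and 0.20 in S970A and -1.05, -1.31 and -0.59 in S970D, a difference of -1.14 ± 0.42. S970A replicate 1 was the library farthest from S970D for Slc18a1. Axon guidance genes had -0.11 over 34 genes, with 3 higher (8.82%, against 3.96% of all genes) and 1 lower (2.94%, against 4.11%) without overlap. Synaptic vesicle genes had -0.08 over 31 with none without overlap. Noncoding RNAs and snoRNA hosts had 0.39 over 31 genes, and -0.06 against S970A replicate 1. Of the 31, 3 were higher (9.68%, against 3.96% of all genes) and 1 lower (3.23%, against 4.11%) without overlap. Meg3, an imprinted noncoding RNA, read 0.81, -0.92 and 0.23 in S970A and 2.02, 1.63 and 1.13 in S970D, a difference of 1.55 ± 0.47, and Jpx, an activator of X inactivation, differed by 0.78 ± 0.22, both without overlap. Snhg4, a snoRNA host, was the 1 lower, at a difference of -1.40 ± 0.51.

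Markers of other cell types were measured in part. Macrophage markers had 2 of 11 members measured, at a summed level of -0.50 to 0.57 log2 CPM in S970A and 0.62 to 1.31 in S970D, with Ptprc, Csf1r and Adgre1 not analysed here. Endothelial markers had 4 of 10, at 4.44 to 4.73 in S970A and 4.60 to 5.18 in S970D, and muscle markers 11 of 16, at 8.24 to 8.81 and 8.59 to 8.68. Cd68, a lysosomal protein of macrophages, and Vwf, a clotting factor of endothelium, were higher without overlap, at differences of 1.23 ± 0.36 and 1.27 ± 0.46. Each was the 1 such member of its short list (50% and 25%, against 3.96% of all genes). The other macrophage marker measured, Cx3cr1, a chemokine receptor, differed by -0.62 ± 0.50 with overlap. The muscle markers Tnnt3, a troponin, and Acta1, skeletal muscle actin, were also higher without overlap, at 0.68 ± 0.26 and 0.70 ± 0.33. They made up 18.2% of the muscle list, against 3.96% of all genes. Over the 11 muscle markers the median was 0.61, and -0.14, 0.75 and 0.96 against S970A replicates 1, 2 and 3. Fibroblast markers had 5 of 11, glial markers 5 of 12 and epithelial markers 3 of 11, none without overlap. The part of these markers in the other differences was not tested.

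Differences ran along transcript length and GC content, in opposite directions for S970A replicate 1 and for the other S970A libraries. In the shortest of 5 equal bins, with a median length of 886 bases, the median of the S970D mean minus S970A replicates 1, 2 and 3 was -0.13, 0.52 and 0.66. In the longest bin, with a median length of 5984 bases, it was 0.10, -0.47 and -0.56. In the bin of highest GC content, with a median of 58.5%, it was -0.07, 0.48 and 0.53, and in that of the lowest, with a median of 41.8%, it was 0.07, -0.55 and -0.60. Across 15959 genes, which are not independent replicates, Spearman's rank correlation with length was 0.284, -0.437 and -0.462 against S970A replicates 1, 2 and 3, and with GC content -0.183, 0.485 and 0.469. Once both trends were removed, the median of cytosolic ribosomal proteins went from 0.60 to 0.31, that of histones from 0.61 to 0.13, and that of G2 and mitosis genes from -0.24 to -0.11. The cause of the trends was not tested.

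**Figure D5:**
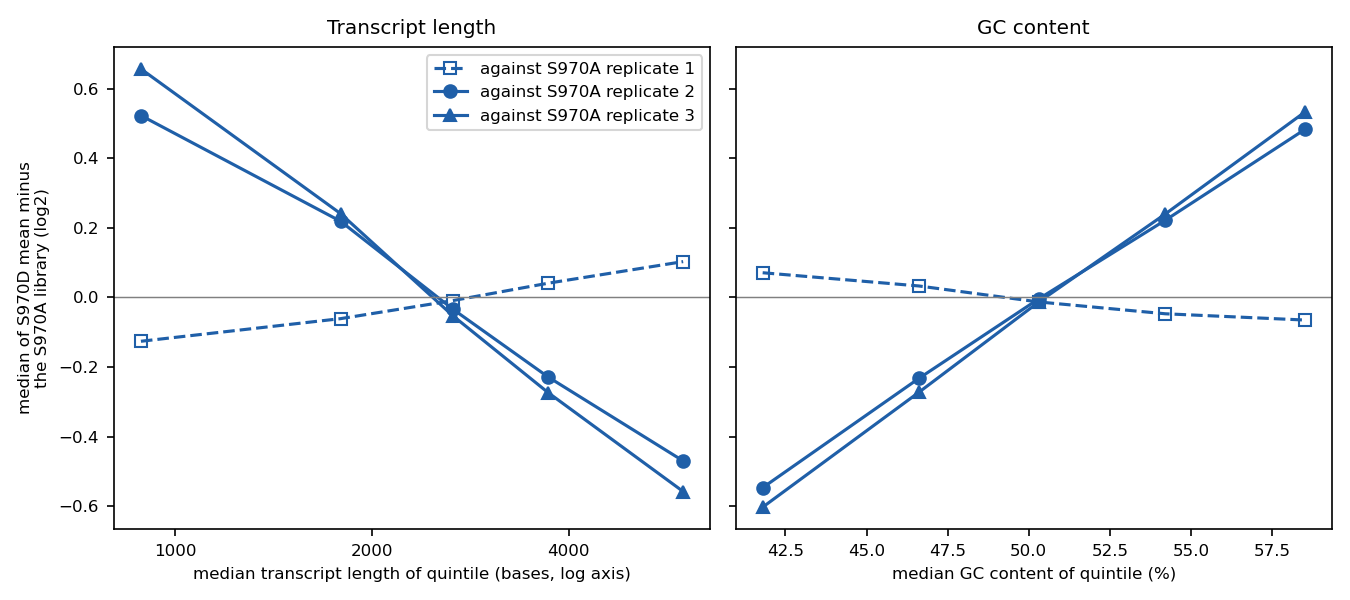
Median of the S970D mean minus each S970A library (log2) in 5 equal bins of genes by transcript length (log axis, bases) and by GC content (%); the dashed line with open squares is S970A replicate 1. The lines for S970A replicates 2 and 3 run from 0.52 and 0.66 in the shortest bin to -0.47 and -0.56 in the longest, and that for replicate 1 from -0.13 to 0.10.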

How the data were processed

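RNA was sequenced from N2A cells with a stranded messenger RNA kit for 101 cycles from each end, per the labels' protocols. The authors deposited 1 table of log2 CPM, with 1 column per library and replicates not pooled; the sources used here do not give its prior count, scaling or low-gene filter. bcl2fastq 2.20, Salmon 1.1.0, R 3.6.3 and the build GRCm38 are named in the submitters' processing notes, with no role. Read counts were not used here, so depth and counting error are unknown, and folds of low genes depend on the unknown prior count.

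The 6 S970A and S970D columns were grouped by the labels and fitted with limma 3.58.1 in R 4.3.3. Group was the only term, with an intensity trend and two-sided p. Benjamini-Hochberg adjustment ran over 15977 genes, with a threshold of 0.05. The fit was checked only on simulated data with independent noise for each gene. That check cannot show how the fit behaves when 1 library, such as S970A replicate 1, shifts many genes together. Lists are described by counts and medians. Named genes were Mov10 and the 10 per direction with the smallest p among genes without overlap. Those genes needed a mean log2 CPM of at least 0 and a symbol that is not a predicted model. The 5 per direction with the smallest p without S970A replicate 1 were added under the same conditions on level and symbol. Per list, up to 3 members were taken by test statistic, only from those in the direction of the list median. Members that went the other way were not eligible by that rule. Other list members are named where they were without overlap or central to the pathway, chosen after their values were seen. Members and lists were chosen with earlier results of these data known. Lengths and GC content come from GENCODE vM21, where 15959 gene IDs (99.9%) matched. Alternatives were another pseudocount, a level filter, other scalings and variance priors, a replicate block, trend removal with splines of 5 degrees of freedom, and libraries left out.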

Additional observations from a re-analysis of the deposited data

How the results depend on the processing

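No gene passed limma's test under a pseudocount of 1, a mean log2 CPM of at least 1, quantile normalization, median centring, other variance priors or trend removal, nor without S970A replicate 2 or 3 or S970D replicate 1 or 3. Leaving out 1 library gave 0 to 6876 genes passed (0 to 3362 higher, 0 to 3514 lower), 200 to 8377 at an unadjusted p under 0.05, and 1607 to 10948 without overlap (788 to 5400 higher, 819 to 5548 lower). The 6876 came without S970A replicate 1, and 2 genes, both pseudogenes, passed without S970D replicate 2. With fewer than 6 libraries, random order leaves a larger share of genes without overlap on average. Counts without overlap from fewer libraries are therefore not comparable with the 1289 from all 6. With both libraries numbered 1 left out, 5052 genes passed (2416 higher, 2636 lower; 7314 unadjusted), and 11630 were without overlap (5782 higher, 5848 lower). Trend removal without S970A replicate 1 gave 3162 passed (1640 higher, 1522 lower; 5821 unadjusted) and 8941 without overlap (4442 higher, 4499 lower). Alternatives chosen after seeing the data, also without S970A replicate 1, gave 6696 passed under quantile normalization (3402 higher, 3294 lower; 8217 unadjusted; 10758 without overlap, 5376 higher, 5382 lower) and 6879 under median centring (4108 higher, 2771 lower; 8332 unadjusted; 10968 without overlap, 6343 higher, 4625 lower). Median centring there moved the median of all genes to 0.12, against -0.01 as deposited. The level filter left 376 genes at an unadjusted p under 0.05 and 762 without overlap, 282 higher, from fewer genes tested.

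The labels state no pairing by replicate number, so whether same-numbered libraries belong together is not known. Deviations of same-numbered libraries correlated at 0.38, 0.00 and 0.24, and 2 libraries correlated best with their own number. With the replicate block, 1 gene passed (1 higher, 1700094D03Rik, limma adjusted p = 0.0486). The block gave 2768 genes at an unadjusted limma p under 0.05, against 714 without it. With trends removed there were 1914 with the replicate block, against 846 without it.

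Dcn, which differed by -0.01, turned to 0.039 under quantile normalization (0.037 without S970A replicate 1), 0.062 under median centring (0.076), 0.13 with trends removed (0.13 with the block, 0.16 without S970A replicate 1), 0.032 with both libraries numbered 1 left out, and ranged from -0.10 to 0.080 without 1 library. With trends removed, with or without the block, Hsp90aa1 turned to 0.045, Hspa4l to 0.050 and Ccng1 to 0.026. With S970A replicate 1 also left out, Hsp90aa1 was at 0.12, Hspa4l 0.20, Ccng1 0.068, Ptar1 0.18, Tut7 0.057, Zfp846 0.031, Hsph1 0.027, Epha7 0.027, Sdf2l1 -0.027 and Rab25 -0.14. Cdh5 ranged from -0.85 to 1.62 without 1 library. The causes were not tested. Depth, unknown from log2 CPM, limits any statement on genes near the lowest value.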
